A study of Rattus norvegicus with 6 samples.

Results

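The genes described here encode secreted and membrane-anchored enzymes that degrade the extracellular matrix, together with inhibitors, activators and the urokinase receptor. Members were all genes whose platform symbol was that of a matrix metalloproteinase (Mmp followed by a number), an ADAMTS protease or a tissue inhibitor of metalloproteinases (Timp1 to Timp4), plus Plau, Plat, Plaur and Plg. This gave 39 of the 15037 named genes: 21 metalloproteinases, 10 ADAMTS genes, 4 TIMPs and 4 genes of plasminogen activation. The cells were tracheal basal cells of wild-type male Sprague Dawley rats aged 12 weeks, kept as 3 lines, each pooled from 3 rats. Each line was split at isolation between BEGM, a growth medium for bronchial epithelium, and EpiX, a second medium for epithelial cells. RNA was taken after 8 days, and the comparison asked what the medium changes. Arrays are numbered 1 to 3 in each medium by the sample number in the labels. Same-numbered arrays were taken as a pair from the same line, which the labels do not state.

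Matrix metalloproteinases are zinc enzymes that are made as inactive proenzymes and between them cleave collagens, gelatin, laminin and proteoglycans. TIMPs bind their active sites and block them. The urokinase and tissue-type activators, encoded by Plau and Plat, turn plasminogen into plasmin, which digests fibrin and can activate several prometalloproteinases. ADAMTS enzymes carry thrombospondin repeats and cut matrix proteoglycans, procollagens or other secreted proteins. In airway epithelium these systems are known for their part in cell migration and wound closure.

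The cells carried basal markers in both media. Of 6 measured basal markers, 5 lay above the array's median on every array, Ngfr being the dim one, and Krt5 was not analysed here. The list averaged 11.35 to 11.88 on the BEGM arrays and 13.22 to 13.46 on the EpiX arrays, where 3 of 6 (Krt15, Tp63 and Bcam) rose. Fibroblast markers also moved between the arrays. All 9 were highest on BEGM array 3, and their mean level was 6.50, 7.24 and 10.11 on BEGM arrays 1, 2 and 3 against 5.29, 5.33 and 5.77 on the EpiX arrays. By limma 0 of the 9 were called, 3 with the line as a block, and 5 without BEGM array 1. At an unadjusted p under 0.05 by limma were 6 of the 9, as were 3377 of all 15037 genes. The part of the fibroblast markers in the results below was not tested. In bulk RNA, fewer cells of a type and less RNA per cell cannot be told apart. Of 8 leukocyte markers, which averaged 4.91 to 5.01, 1 fell (Cd74). Ptprc was at 3.78 to 4.14, while Cd68 was at 8.65 to 10.22 in BEGM and 9.17 to 11.36 in EpiX (1.04 ± 0.64, SE; adjusted p = 0.4), and 0 of 5 endothelial markers were called by limma (1 at an unadjusted p under 0.05). Of 4 smooth muscle markers 1 fell. Cnn1 was at 10.6, 13.5 and 13.3 in BEGM and at 5.20, 5.92 and 5.28 in EpiX (-7.00 ± 0.74, SE; adjusted p = 0.00649). Actg2 was at 6.92 to 7.17 in BEGM and 6.36 to 6.53 in EpiX (-0.58 ± 0.14, SE; adjusted p = 0.0622), and Myh11 and Des were at 4.09 to 4.87 on all arrays. On the first principal component over all genes BEGM array 1 scored -7.24, between the other BEGM arrays (-54.8 and -73.2) and the EpiX arrays (34.2 to 53.9). Array medians were 6.90 to 7.13.

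Cells in EpiX had less Mmp2, Mmp9, Mmp3, Mmp14 and Timp1 RNA than the same lines in BEGM, and more Mmp15 RNA. These 5 falls and 1 rise were the calls among the 39 members by limma with adjusted p under 0.05 (Benjamini-Hochberg over all genes). Over all genes 5.78% were called, 3.15% lower and 2.63% higher in EpiX. The other 33 members did not pass. At an unadjusted p under 0.05 by limma were 18 of the 39 members and 3377 of all 15037 genes. With the line as a block, 8 members fell and 1 rose, and 8.33% of all genes were called. Without BEGM array 1, 14 members fell and 1 rose, and 13.9% of all genes were called.

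Direction was uneven beyond the calls. Of the 39 differences 29 were below 0, with a median of -0.41 on the log2 scale, against 49.8% below 0 and a median of 0.00218 over all genes. The difference was -1 or lower for 14 members and 1 or higher for 1, while 5.49% and 3.92% of all genes lay that far apart. For 16 members all 3 EpiX arrays lay below all 3 BEGM arrays, and for 1 above. Over all genes these shares were 14.5% and 13.5%. Of the 39 members, 23 (59.0%) differed in the same direction in all 3 same-numbered pairs, as did 46.3% of all genes.

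**Figure D1:**
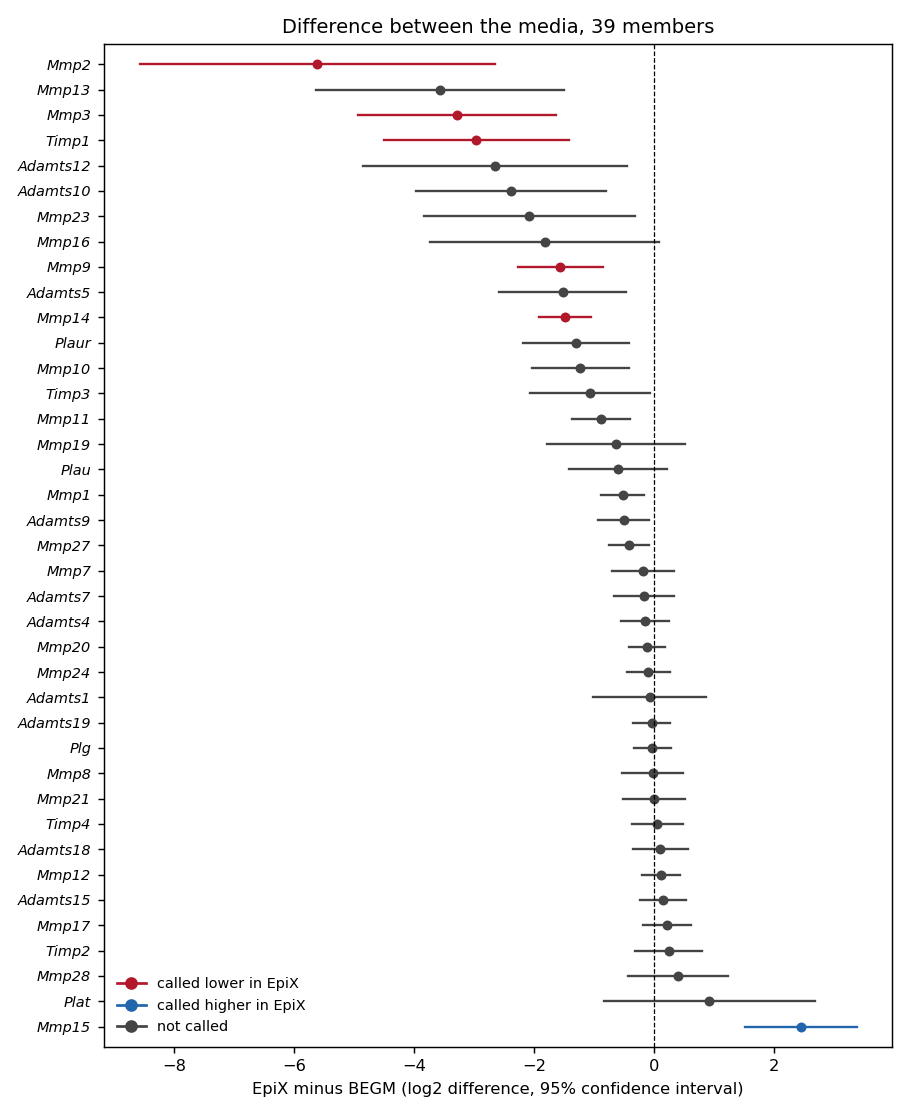
EpiX minus BEGM difference on the log2 scale (x axis) for each of the 39 members (y axis), with the 95% confidence interval from limma. Red points are members called lower in EpiX, the blue point is Mmp15, called higher, and dark points were not called; most points lie left of 0, and the intervals of 12 uncalled members, Mmp13, Adamts10 and Plaur among them, exclude 0.

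The gelatinases, which digest denatured collagen and basement membrane collagen, were both lower in EpiX. Mmp2 had the largest difference of all members. It was at 8.71, 12.30 and 14.28 on BEGM arrays 1, 2 and 3, and at 5.72, 6.21 and 6.52 under EpiX. The groups did not overlap, but BEGM array 1 lay closer to the EpiX arrays than to BEGM array 3. The difference was -5.62 ± 1.25 (SE, n = 3 per medium; adjusted p = 0.0499), and -3.00, -6.09 and -7.76 in pairs 1, 2 and 3. All EpiX values and that of BEGM array 1 lay under the 95th percentile of the 1153 probe sets that the array marks as negative controls (8.97 to 10.08), so no fold is given. The order of the BEGM arrays was also that of the fibroblast marker means given above. The call ended without BEGM array 2 (adjusted p = 0.178), BEGM array 3 (0.0712), EpiX array 1 (0.157), EpiX array 2 (0.175) or EpiX array 3 (0.112). Leaving out both arrays of number 2 (0.465) or of number 3 (0.125) ended it too. It also ended with quantile normalization (0.0529), a trended and robust variance (0.062) and adjustment over all probe sets (0.0522), and the adjusted p was 0.00078 without BEGM array 1.

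Mmp9, the second gelatinase, was at 5.93, 5.78 and 6.84 under BEGM and at 4.67, 4.34 and 4.86 under EpiX. All EpiX values were below all BEGM values. It fell by 1.56 ± 0.30 (SE; adjusted p = 0.0321). The gene was dim: on all 6 arrays it lay under the 95th percentile of the negative controls, and on the 3 EpiX arrays under their median (5.24 to 5.56). Its call ended without BEGM array 2 (adjusted p = 0.075), EpiX array 1 (0.107), EpiX array 2 (0.144) or EpiX array 3 (0.0684). It also ended without both arrays of number 1 (0.0501), of number 2 (0.316) or of number 3 (0.0505).

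Mmp14 encodes the membrane-anchored MT1-MMP, a collagenase that also activates pro-MMP2 at the cell surface. Its signal was 12.44, 12.94 and 12.83 under BEGM and 11.11, 11.21 and 11.45 under EpiX. The 3 arrays of each medium lay close together and apart from those of the other medium. It fell by 1.48 ± 0.18 (SE; adjusted p = 0.00959), the smallest p among the members. Without EpiX array 1 the adjusted p was 0.0531 and without EpiX array 2 it was 0.065. Leaving out both arrays of number 2 gave 0.272, and both of number 3 gave 0.0505. BEGM array 1, which stood near the EpiX arrays for Mmp2, stood with the other BEGM arrays for Mmp14.

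Mmp15, which encodes the related membrane enzyme MT2-MMP, went the other way. It was at 8.86, 8.02 and 7.41 under BEGM and at 11.07, 10.37 and 10.20 under EpiX. It was the 1 member with every EpiX array above every BEGM array. The rise was 2.45 ± 0.39 (SE; adjusted p = 0.0194), with 2.21, 2.35 and 2.79 in the 3 pairs. Its BEGM values lay under the 95th percentile of the negative controls and its EpiX values above it. The call ended without BEGM array 2 (adjusted p = 0.0923), EpiX array 1 (0.0724) or EpiX array 2 (0.0879). It also ended without both arrays of number 2 (0.335) or of number 3 (0.0568). Of the other membrane-type genes, Mmp16 (MT3-MMP) was at 4.89, 6.43 and 8.48 in BEGM and at 4.72, 4.52 and 5.11 in EpiX, so BEGM array 1 lay within the EpiX range (-1.82 ± 0.81, SE; adjusted p = 0.247, and 0.0229 without BEGM array 1). On all 6 arrays Mmp16 lay under the 95th percentile of the negative controls, and on the EpiX arrays under their median. Mmp17 and Mmp24 differed by 0.22 and -0.09, with confidence intervals of -0.18 to 0.63 and -0.45 to 0.28.

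**Figure D2:**
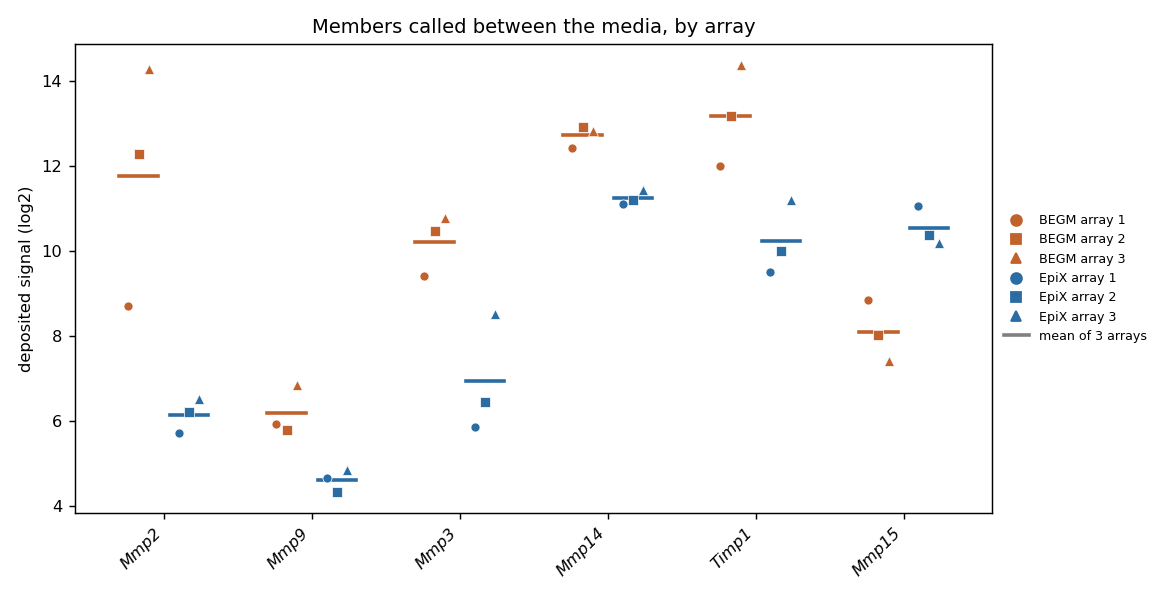
Deposited log2 signal (y axis) of the 6 called members (x axis) on each array; orange is BEGM, blue is EpiX, symbols mark arrays 1, 2 and 3, and bars are means of 3 arrays. The 3 Mmp14 values of each medium lie close together, the Mmp2 values in BEGM run from 8.71 to 14.28, and Mmp15 is the gene that is higher in EpiX.

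The stromelysins and collagenases lie side by side in the genome. In the RefSeq order of genes on rat chromosome 8 (build GRCr8), 9 members neighbour each other in the order Mmp13, Mmp12, Mmp3, Mmp1, Mmp10, Mmp8, Mmp27, Mmp20 and Mmp7, with Mmp1b the 1 other protein-coding gene among them, not analysed here. The 2 with the largest differences, Mmp13 and Mmp3, are not next to each other. Between them lies Mmp12, the macrophage elastase gene, at 3.83 to 4.13 on all arrays.

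Mmp3 encodes stromelysin-1, which cuts proteoglycans, laminin and other prometalloproteinases. It was at 9.41, 10.47 and 10.79 under BEGM and at 5.86, 6.45 and 8.51 under EpiX. The groups did not overlap, and EpiX array 3 was the highest of its medium. Mmp3 fell by 3.28 ± 0.70 (SE; adjusted p = 0.0441). All 3 EpiX values lay under the 95th percentile of the negative controls. The call ended without BEGM array 2 (adjusted p = 0.161), BEGM array 3 (0.108), EpiX array 1 (0.129) or EpiX array 2 (0.175). It also ended without both arrays of number 2 (0.46), and with a trended and robust variance (0.0538).

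Mmp13, the main interstitial collagenase of rodents, was at 8.11, 10.94 and 11.52 under BEGM and at 5.93, 6.48 and 7.47 under EpiX. The lowest BEGM value lay above the highest EpiX value, and BEGM array 1 and the EpiX arrays lay under the 95th percentile of the negative controls. Its difference of -3.56 ± 0.88 (SE) was larger than that of Mmp3 but did not pass (adjusted p = 0.065). It fell with the line as a block (adjusted p = 0.0141) and without BEGM array 1 (adjusted p = 0.0015). Mmp10, which encodes stromelysin-2, was at 5.11, 6.29 and 5.19 in BEGM and at 4.002, 4.29 and 4.63 in EpiX (-1.22 ± 0.34, SE; adjusted p = 0.0893, and 0.0395 without BEGM array 1). Mmp11, stromelysin-3, which lies on another chromosome, differed by -0.89 ± 0.20 (adjusted p = 0.055, and 0.0248 without BEGM array 1).

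The other cluster genes were dim. Mmp1, Mmp8, Mmp12, Mmp20 and Mmp27 lay below the median of the negative controls on all 6 arrays, with differences from -0.52 (Mmp1) to 0.12 (Mmp12). For Mmp1 (adjusted p = 0.103) and Mmp27 (0.14) the EpiX arrays all lay below the BEGM arrays. Mmp7, the epithelial matrilysin, was at 4.95, 5.63 and 4.88 in BEGM and at 4.91, 4.96 and 5.05 in EpiX. These values overlapped, with a difference of -0.18 and a confidence interval of -0.70 to 0.34.

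**Figure D3:**
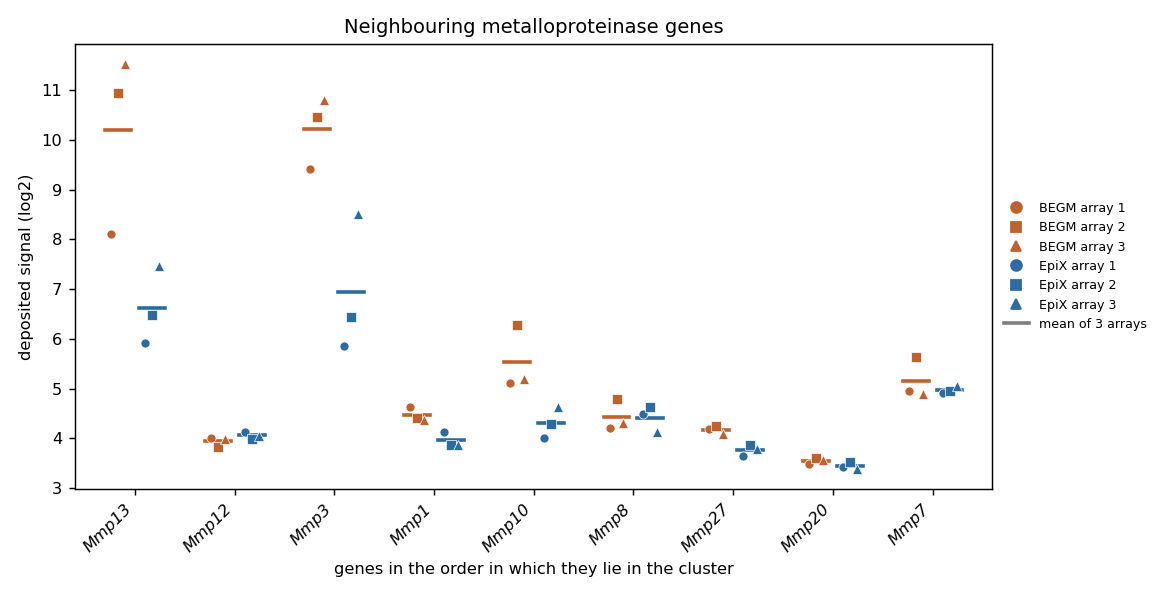
Deposited log2 signal (y axis) of the 9 neighbouring metalloproteinase genes in their order in the genome (x axis, not to scale) on each array; orange is BEGM, blue is EpiX, and bars are means of 3 arrays. Mmp13 and Mmp3 separate by medium with means of 10.19 and 10.22 in BEGM, while Mmp12 between them stays at 3.83 to 4.13.

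Promoter windows are shown for the called members Mmp3, Timp1 and Mmp15, to set 2 genes that fell beside the 1 that rose, and for Mmp13 as the cluster gene with the largest difference. They are RefSeq sequences of build GRCr8, from 250 bases before the annotated transcription start to 50 bases from it onwards, and 29 of the 39 members matched one by gene ID. Capitals mark matches to the AP-1 motif TGANTCA, bound by Jun and Fos proteins, and to the PEA3 motif AGGAAG, bound by Ets factors. Both strands were searched, and no match to one overlapped a match to the other in these windows.

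Mmp13, chr8:12782579-12782878, plus strand: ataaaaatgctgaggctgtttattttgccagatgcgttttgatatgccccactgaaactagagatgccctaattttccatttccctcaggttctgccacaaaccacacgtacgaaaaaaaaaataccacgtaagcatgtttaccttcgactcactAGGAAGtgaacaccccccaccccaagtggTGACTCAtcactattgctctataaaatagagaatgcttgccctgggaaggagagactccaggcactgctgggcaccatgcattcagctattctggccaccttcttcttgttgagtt
Mmp3, chr8:12925031-12925330, plus strand: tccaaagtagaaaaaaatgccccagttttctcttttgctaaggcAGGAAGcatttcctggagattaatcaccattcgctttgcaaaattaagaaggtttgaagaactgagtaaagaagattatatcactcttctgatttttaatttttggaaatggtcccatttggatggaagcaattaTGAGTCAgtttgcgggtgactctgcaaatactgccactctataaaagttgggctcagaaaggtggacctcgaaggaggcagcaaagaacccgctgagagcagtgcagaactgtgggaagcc
Timp1, chrX:3771073-3771372, minus strand: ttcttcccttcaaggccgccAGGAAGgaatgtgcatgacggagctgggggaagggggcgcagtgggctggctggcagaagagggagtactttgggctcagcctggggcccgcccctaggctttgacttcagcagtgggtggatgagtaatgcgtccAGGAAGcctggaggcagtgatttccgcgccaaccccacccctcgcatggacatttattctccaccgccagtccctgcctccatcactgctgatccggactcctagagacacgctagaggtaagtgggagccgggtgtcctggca
Mmp15, chr19:9690951-9691250, minus strand: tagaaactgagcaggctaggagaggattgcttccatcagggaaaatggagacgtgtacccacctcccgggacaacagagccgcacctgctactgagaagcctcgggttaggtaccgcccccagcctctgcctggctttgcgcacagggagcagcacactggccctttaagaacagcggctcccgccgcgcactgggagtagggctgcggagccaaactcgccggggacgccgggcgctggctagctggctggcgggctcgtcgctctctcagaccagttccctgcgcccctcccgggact

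In Mmp13 the AP-1 match spanned positions -66 to -60 from the start and in Mmp3 positions -71 to -65. The windows of Timp1 and Mmp15 held no match to TGANTCA. Variants of that motif were not searched, so this does not show that they lack an AP-1 site. Of the 29 member windows 8 held TGANTCA, against 7.33% of all 33469 windows. The 8 were Plaur and 7 of the 9 cluster genes, all but Mmp8 and Mmp27. Mmp12 and Mmp20, dim in both media, held a match too. AGGAAG was found in 13 of the 29 windows, including those of Mmp13, Mmp3 and Timp1 (34.5% of all windows), TATAAA in 12 (14.2%) and the GC box GGGCGG in 12 (33.1%), including those of Timp1 and Mmp15. A match is a run of letters and not a measured binding site.

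The ADAMTS genes gave 0 calls among 10 members by limma, with a median difference of -0.16. At an unadjusted p under 0.05 were 4 of the 10, against 3377 of all 15037 genes. The largest differences were those of Adamts12, Adamts10 and Adamts5. Adamts12, whose enzyme cuts cartilage oligomeric matrix protein, was at 5.44, 7.64 and 9.64 under BEGM and at 4.95, 5.13 and 4.68 under EpiX. Adamts10, whose protein associates with fibrillin microfibrils, was at 7.83, 9.32 and 10.79 in BEGM and at 6.65, 7.07 and 7.07 in EpiX. In both genes the EpiX arrays lay close together below all BEGM arrays, and the BEGM arrays were far apart, lowest on array 1 and highest on array 3. The EpiX values of both lay under the 95th percentile of the negative controls, and those of Adamts12 under their median. The differences were -2.65 ± 0.93 (SE; adjusted p = 0.153) for Adamts12 and -2.38 ± 0.67 (adjusted p = 0.0906) for Adamts10. Without BEGM array 1 both passed (0.00627 and 0.00481), and Adamts10 passed with the line as a block (0.04).

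The aggrecanase gene Adamts5 was at 4.63, 6.19 and 6.37 in BEGM and at 3.97, 4.33 and 4.33 in EpiX (-1.52 ± 0.45, SE; adjusted p = 0.102). It passed with the line as a block (adjusted p = 0.0405) and without BEGM array 1 (0.00121). On all 6 arrays it lay under the 95th percentile of the negative controls, and on the EpiX arrays under their median. Its neighbour Adamts1, with 0 protein-coding genes between them on chromosome 11, was at 10.17, 9.43 and 10.25 in BEGM and at 9.23, 9.73 and 10.68 in EpiX. The Adamts1 values overlapped (-0.07, confidence interval -1.01 to 0.87). Adamts4, Adamts7, Adamts9, Adamts15, Adamts18 and Adamts19 differed by -0.50 (Adamts9) to 0.16 (Adamts15).

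Among the remaining metalloproteinases, Mmp23 was at 5.16, 6.80 and 8.52 under BEGM and at 4.80, 4.64 and 4.82 under EpiX. The groups did not overlap, but the lowest BEGM value lay 0.36 above EpiX array 1, its pair. All Mmp23 values lay under the 95th percentile of the negative controls, and the EpiX values under their median. The difference of -2.07 ± 0.75 (SE) did not pass (adjusted p = 0.16, and 0.00866 without BEGM array 1). Mmp19 was at 6.86, 7.64 and 8.99 in BEGM and 7.15 to 7.31 in EpiX, again with BEGM array 3 apart. Mmp28, or epilysin, which is known from keratinocytes and airway epithelium, was at 9.71, 9.18 and 8.69 in BEGM and at 10.10, 9.70 and 8.99 in EpiX. It was higher in EpiX in each pair, by 0.39, 0.52 and 0.30, but the values of the media overlapped (adjusted p = 0.569, and 0.175 with the line as a block). Mmp21 was dim in both media.

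**Figure D4:**
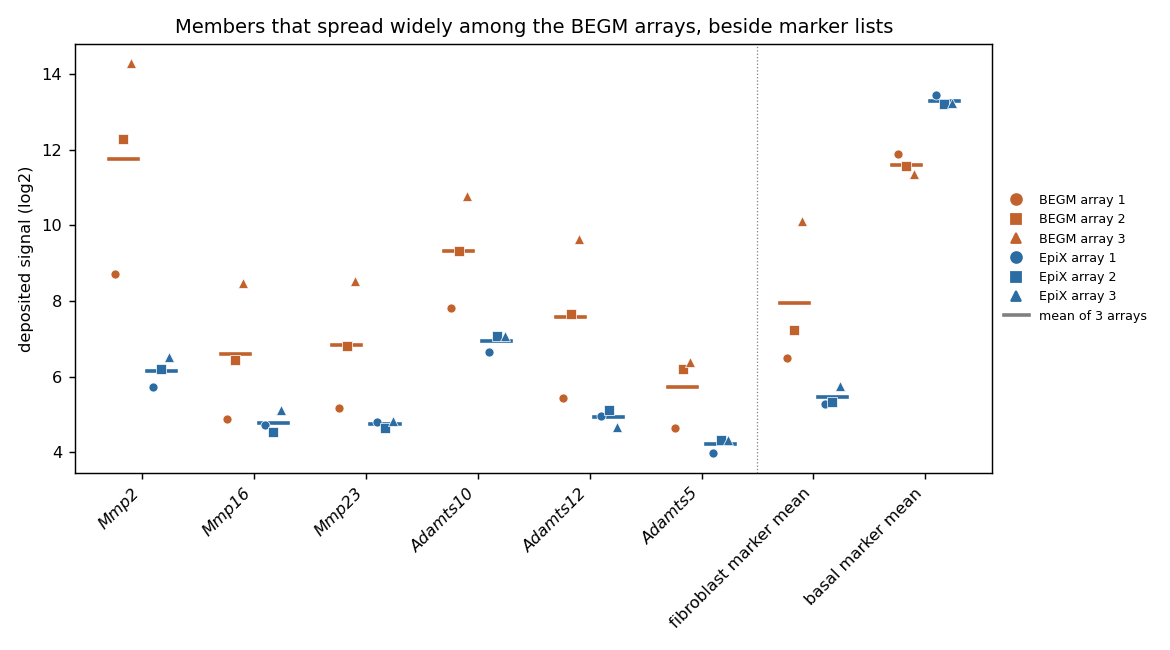
Deposited log2 signal (y axis) of 6 members that spread widely in BEGM, and the mean over the 9 fibroblast and 6 basal markers (x axis), on each array; orange is BEGM, blue is EpiX, and bars are means of 3 arrays. BEGM array 3 is the highest and BEGM array 1 the lowest of the BEGM arrays for all 6 members and for the fibroblast mean (6.50, 7.24 and 10.11), and the reverse holds for the basal mean (11.88, 11.58 and 11.35). Of the single basal markers, Krt15, Tp63 and Itga6 ran in that reverse order, and Krt14, Ngfr and Bcam did not. The 6 members were picked for display. Mmp13, Timp1, Plat and Mmp19 had larger BEGM SDs than Adamts5 (0.96) and are not shown. Mmp13, Timp1 and Mmp19 were highest on BEGM array 3, but Plat was lowest there (13.44, 13.33 and 11.35). Over all 39 members, BEGM array 3 was the highest for 16.

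Some members spread widely within BEGM. Others had the larger SD in EpiX, such as Mmp3 (1.39 against 0.72 in BEGM), Plaur (0.71 against 0.39) and Adamts1 (0.74 against 0.45). The SD over the 3 BEGM arrays was 2.82 for Mmp2, 2.10 for Adamts12, 1.83 for Mmp13, 1.80 for Mmp16, 1.68 for Mmp23 and 1.48 for Adamts10, and in EpiX these genes had SDs of 0.10 (Mmp23) to 0.78 (Mmp13). The EpiX values of these genes lay under the 95th percentile of the negative controls, and those of Mmp16, Mmp23 and Adamts12 under their median. SDs of signals at that level may not measure the spread of RNA. Over the 39 members the SD was larger in BEGM for 24 (61.5%), as it was for 61.9% of all genes. BEGM array 1 was the lowest BEGM array for 20 members (51.3%) and for 37.0% of all genes. BEGM array 3 was the highest for 16 members (41.0%) and for 31.5% of all genes.

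Of the 4 inhibitors Timp1 fell and the other 3 did not pass. Timp1, an inducible inhibitor of most secreted metalloproteinases, was at 12.01, 13.19 and 14.38 under BEGM and at 9.50, 10.003 and 11.20 under EpiX. Within each medium array 1 was lowest and array 3 highest, and the pair differences were -2.51, -3.19 and -3.18. The difference was -2.96 ± 0.65 (SE; adjusted p = 0.0488), or 7.77-fold, with an adjusted p of 0.00298 with the line as a block. The call ended without BEGM array 2 (adjusted p = 0.164), BEGM array 3 (0.0861), EpiX array 1 (0.155), EpiX array 2 (0.183) or EpiX array 3 (0.0598). Leaving out both arrays of number 2 or of number 3 ended it too. It also ended with quantile normalization (0.0502), a trended and robust variance (0.0606) and adjustment over all probe sets (0.051).

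Timp2, which blocks metalloproteinases and also takes part with MT1-MMP in the activation of pro-MMP2, was at 16.41, 15.62 and 15.79 in BEGM and at 16.36, 16.27 and 15.95 in EpiX. The media overlapped, and the confidence interval of the difference, -0.31 to 0.81, does not reach the size measured for Timp1. Timp3, the inhibitor that binds to the matrix, was at 10.38, 12.10 and 11.16 in BEGM and at 10.21, 10.46 and 9.79 in EpiX. BEGM array 1 lay between EpiX arrays 1 and 2, and the difference of -1.06 ± 0.42 (SE) did not pass (adjusted p = 0.198, and 0.0276 without BEGM array 1). Timp4 was dim on all arrays.

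The plasminogen system had 0 calls among 4 members by limma, with 1 at an unadjusted p under 0.05. Over all genes 5.78% were called, and 3377 of 15037 were at an unadjusted p under 0.05. Plaur, the receptor that holds urokinase at the cell surface, was at 14.20, 13.72 and 13.43 under BEGM and at 11.72, 12.65 and 13.11 under EpiX. The groups did not overlap, but the same-numbered arrays differed unevenly, by -2.48, -1.07 and -0.32 in pairs 1, 2 and 3. The difference between the media was -1.29 ± 0.37 (SE; adjusted p = 0.0984), and the adjusted p was 0.122 with the line as a block. BEGM array 1, the lowest BEGM array for Mmp2, Mmp3, Mmp13 and Timp1, was the highest for Plaur.

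Plau, which encodes urokinase, was at 13.85, 13.37 and 12.40 in BEGM and at 12.64, 12.58 and 12.61 in EpiX. The EpiX values were nearly equal and BEGM array 3 lay below them (-0.60 ± 0.34, SE; adjusted p = 0.37). Plat, which encodes the tissue-type activator, was at 13.44, 13.33 and 11.35 in BEGM and at 14.91, 13.48 and 12.52 in EpiX. It was higher in EpiX in each pair, by 1.47, 0.15 and 1.17, while array 3 was the lowest of both media (0.93 ± 0.74, SE; adjusted p = 0.53, and 0.112 with the line as a block). Plg, the liver-made substrate of both activators, was at 3.93 to 4.10 on all arrays, below the median of the negative controls.

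**Figure D5:**
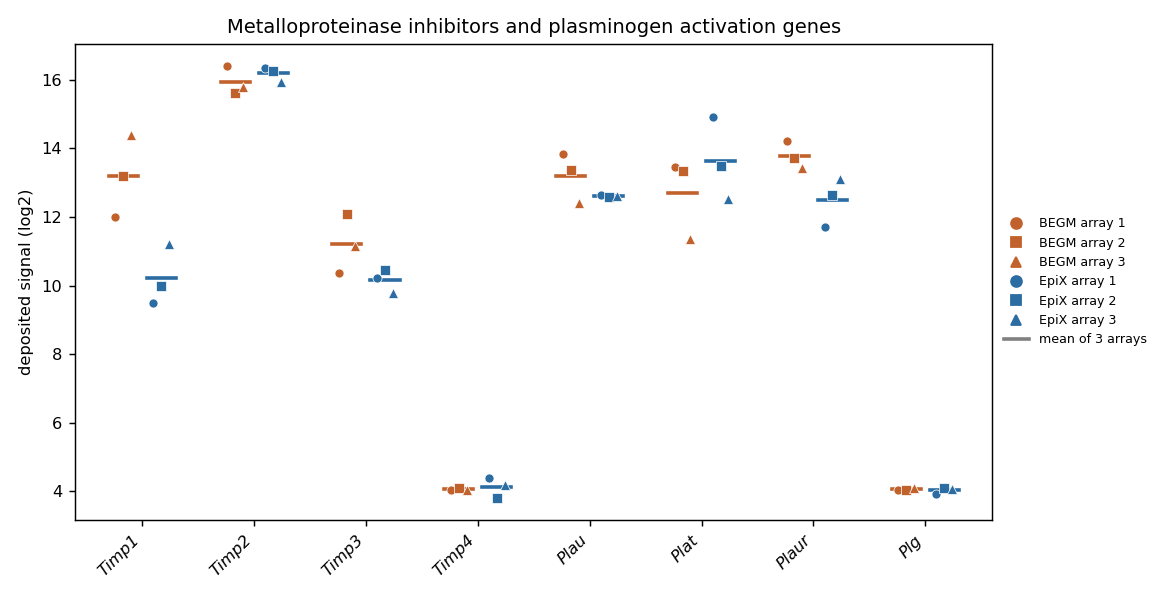
Deposited log2 signal (y axis) of the 4 inhibitors and the 4 plasminogen activation genes (x axis) on each array; orange is BEGM, blue is EpiX, and bars are means of 3 arrays. Timp1 separates by medium, Timp2 and Plat overlap, Plaur separates by less in pair 3 than in pair 1, and Timp4 and Plg are dim throughout.

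In all, 12 of the 39 members lay below the median of the negative controls on all 6 arrays, as did 31.6% of all genes. Under their 95th percentile on all 6 arrays lay 24 members and 60.1% of all genes. The 12 were Mmp1, Mmp8, Mmp12, Mmp20, Mmp21, Mmp27, Adamts9, Adamts15, Adamts18, Adamts19, Timp4 and Plg. No detection calls were used, so their RNA was neither called present nor absent.

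Lists of other genes that act on or beside these enzymes were counted against the 3.15% of all genes called lower and 2.63% called higher. Of 10 measured genes that activate, bind or hold back metalloproteinases, 4 fell and 0 rose, with a median of -1.45. Furin, the convertase that trims the propeptide of MT1-MMP, was at 12.46, 13.51 and 13.35 in BEGM and at 11.48, 11.22 and 10.98 in EpiX (-1.89 ± 0.30, SE; adjusted p = 0.0181). A second convertase gene, Pcsk6, fell by 1.38 ± 0.18, from 6.53, 7.07 and 6.78 to 5.49, 5.26 and 5.49. The matricellular genes Sparc (-3.27 ± 0.49) and Thbs1 (-6.77 ± 1.10) also fell, and Tfpi2, a protease inhibitor laid down in matrix, differed by -1.91 ± 0.55 (adjusted p = 0.0984, and 0.0479 with the line as a block). Furin, Pcsk6, Sparc and Thbs1 lost the call without EpiX array 1 or 2 (adjusted p of 0.0531 to 0.1), Furin, Sparc and Thbs1 also without BEGM array 2 (0.0784 to 0.0952), Thbs1 without BEGM array 3 (0.0513) and Furin without EpiX array 3 (0.0604). Bsg, or EMMPRIN, an inducer of metalloproteinases, was at 16.03 to 16.27 in BEGM and 15.74 to 16.19 in EpiX. Reck, a membrane inhibitor, was not analysed here.

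Of 10 measured genes that control plasminogen activation or bind plasminogen, 0 were called by limma. At an unadjusted p under 0.05 was 1 of them, as were 3377 of all 15037 genes. That 1 was Serpinb2, a urokinase inhibitor, at 16.66, 15.49 and 15.63 in BEGM and at 16.89, 16.87 and 17.04 in EpiX (1.01 ± 0.31, SE; adjusted p = 0.114). The plasminogen-binding pair Anxa2 and S100a10 differed by 0.22 and -0.06. Of 6 ADAM genes, a family that includes membrane sheddases, 1 fell: Adam9 was at 13.47, 13.65 and 13.04 in BEGM and at 12.02, 12.25 and 12.14 in EpiX (-1.25 ± 0.19; adjusted p = 0.0165). Its call ended without BEGM array 2 (adjusted p = 0.0704), EpiX array 1 (0.0728), EpiX array 2 (0.0772) or EpiX array 3 (0.0556). The 3 measured ADAMTS-like genes differed by -0.61 to 0.59 and 0 were called by limma, with 0 at an unadjusted p under 0.05.

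Among 8 membrane serine proteases of epithelia and their inhibitors, 1 rose and 0 fell. Tmprss4, a transmembrane serine protease, was at 7.43, 6.04 and 5.54 under BEGM and at 9.74, 10.07 and 9.36 under EpiX. It rose by 3.39 ± 0.47 (SE; adjusted p = 0.0125), with the groups well apart, and the call ended without BEGM array 2 (adjusted p = 0.0734), EpiX array 1 (0.0604) or EpiX array 2 (0.0752). Tmprss11d, the airway trypsin-like protease, differed by 1.07 ± 0.27 (adjusted p = 0.0729, and 0.0227 with the line as a block). The matriptase gene St14 and its inhibitors Spint1 and Spint2 differed by -0.27, 0.26 and -0.16.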

How the data were processed

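Expression was measured with 1 Affymetrix array per culture, 3 per medium, from biotin-labelled RNA, per the labels' protocols. Of tools, the Transcriptome Analysis Console is listed in the submitters' processing notes, with no role or version. The deposited values are 1 signal per probe set, taken as log2 from their range (2.62 to 18.66). How the authors normalized them is not given in the sources used here, so scale and log base stay unknown and each fold assumes base 2. Of 24834 probe sets, 15049 had 1 symbol in the platform annotation, 0 several and 8139 none, and 1646 were controls. The brightest probe set per gene by its mean over the 6 arrays was kept, giving 15037 genes. Each of the 39 members had a single probe set and matched RefSeq by gene ID.

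A linear model with medium as its only term was fitted with limma 3.58.1 (lmFit, eBayes, 2-sided) in R 4.3.3, with no filter on dim genes, and statmod 1.5.0 for the random block. It was tested on simulated data. Calls were genes with adjusted p under 0.05 (Benjamini-Hochberg) over all 15037 genes. Plots used matplotlib 3.10.9. Alternatives were a fixed or random block for the sample number, leaving out 1 array or both arrays of a number, quantile normalization, median centring, array weights, a variance that was trended and robust, a filter removing the dimmest 25% of genes, averaging the probe sets of each gene, and adjustment over all named and unnamed probe sets. Each line was divided between the media, and same-numbered arrays were taken as the same line. The labels do not state this. In the array titles both arrays 1 carry the number 1 and both arrays 2 the number 3. The titles of both arrays 3 follow another pattern and carry no pair number. Deviations from the group means correlated at 0.32, -0.01 and 0.32 for same-numbered arrays 1, 2 and 3 across genes, and at -0.37 to 0.16 for other pairs.

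Named in full were called members, uncalled members with a difference of at least 1, and Mmp7, Timp2, Plau, Plat and Plg. Of each list of other pathway genes, up to 4 called genes were named. Values of Adamts1, Mmp11, Mmp19, Mmp28, Tfpi2, Tmprss11d, Serpinb2, Bsg, Anxa2, S100a10, St14, Spint1, Spint2 and the genes given beside dim members were added after their values were seen. Members, lists and motifs were chosen with earlier results of these data known. The 3 lines give separate cultures. The p-values of the main fit rest on the spread of the arrays within each medium, moderated over all genes. Those with the line as a block rest on the spread of the differences within pairs.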

Additional observations from a re-analysis of the deposited data

How the results depend on the processing

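The number of members called, 6 by limma, was 3 with a trended and robust variance and 13 with array weights. It was 4 with quantile normalization and 4 with adjustment over all probe sets. Leaving out 1 array, or both arrays of a number, gave 0 to 15, and 15 was reached without BEGM array 1. It was 0 without EpiX array 1, EpiX array 2 or both arrays of number 2, with 14, 15 and 8 members at an unadjusted p under 0.05. Over all genes the 869 calls were 885 with a trended and robust variance, 888 with quantile normalization and 820 with adjustment over all probe sets. They were 1987 with array weights. When arrays were left out they ran from 0 to 2089 (without BEGM array 1). The 0 came without number 2, with 1582 genes at an unadjusted p under 0.05. Fewer samples also weaken each such test. With the line as a block 9 members were called, 8 lower and 1 higher. The 6 called members kept their direction under all 18 alternatives. This was largely fixed in advance. Their values did not overlap between the media, so leaving out arrays could not reverse them. The block and variance settings do not alter the difference. The signs of 10 uncalled members changed in at least 1 alternative: Adamts1, Adamts4, Adamts19, Mmp7, Mmp8, Mmp20, Mmp21, Mmp24, Plg and Timp4. Centring each array on its median kept 5 members lower and 1 higher, but moved the median of all differences from 0.00218 to 0.13 and the split of all calls from 474 lower and 395 higher to 409 lower and 560 higher. Leaving out the dimmest 25% of genes removed 10 members and left 6 called. The causes of these changes were not tested. The number of arrays, and signals near those of the negative controls, limit the precision.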
